A study of Mus musculus with 12 samples.

Results

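Pericytes and vascular smooth muscle cells, together called mural cells, were represented here by 10 genes chosen by name: the receptors PDGFRB and NOTCH3, the signaling regulator RGS5, the surface enzyme ANPEP, the matrix protein VTN, and the contractile proteins ACTA2, TAGLN, MYH11, CNN1 and MYL9. They were chosen with earlier results of these data known. Of these 10 genes, 8 had a row among 13647 rows above the lesion, and 7 had a row among 12338 rows below it. MYH11 and CNN1 had no row at either site, VTN had none below the lesion, and they were not analysed there. The larger differences were between the sites in mice labelled synj1+/+. There PDGFRB, ACTA2, MYL9 and ANPEP were 1.67- to 2.38-fold higher below than above the lesion, 4 of 7 genes past 1.5-fold where 3.24% of all genes were. RGS5 was 1.39-fold higher, and NOTCH3 and TAGLN were level. With 9 more added to each value, only 2 of the 4 stayed past 1.5-fold, where 1.67% of all genes were past it in either direction. At the values as deposited, 12 of 13 fibroblast markers and 7 of 12 basement membrane genes were also past it upward in the same comparison. With the synj1+/- label the ratios of the 4 genes were 1.03- to 1.48-fold. Over the 7 genes the median log2 ratio between the sites was 0.74 in synj1+/+ and 0.09 in synj1+/-. Between the genotypes below the lesion it was -0.38. The sites were normalized separately, which limits every comparison between them.

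The RNA came from spinal cord just above or just below a contusion made at thoracic level 9 in male mice of 4 months, and was collected 14 days after the injury. All mice expressed human ApoE4, and they carried either normal synj1 alleles (labelled homozygous, synj1+/+) or an inactive allele beside a normal one (labelled heterozygous, synj1+/-). With 2 genotypes and 2 sites there were 4 groups of 3 libraries, 12 in all. The paper counts 3 mice per genotype for RNA-seq, and the labels do not say which segments above and below share a mouse. The sites may therefore not be independent sets of animals. Every group was injured, so no value here compares injured with uninjured cord.

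Mural cells wrap the endothelial tubes of capillaries, arterioles and venules. Endothelial cells secrete PDGF-B, which binds PDGFRB on pericytes and keeps them on the vessel, and Notch ligands on neighbouring cells act on NOTCH3 in the arterial smooth muscle layer. In the spinal cord pericytes support the blood barrier, and after injury PDGFRB is also found on fibroblast-like cells of the scar, so the gene does not mark pericytes alone. The contractile genes of smooth muscle carry CArG boxes, short stretches of A and T bases between CC and GG to which serum response factor binds.

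The upstream sequences of MYL9 and ACTA2 are shown because they followed the positional pattern in synj1+/+ and both hold CArG box matches. They were picked for both traits, so a link between the boxes and the pattern was not tested. TAGLN, the other contractile gene listed, did not follow the pattern, but its sequence was not searched. RefSeq promoter sequences of GRCm38.p6 were found for 7 of the 10 genes, with none matched for PDGFRB, TAGLN and MYH11, and each spans 250 bases before to 50 bases after a start site. Capitals mark the CArG box match, read 5′ to 3′ on the strand of the gene. Both strands are covered because the motif is the same on either strand.
MYL9, chr2:156775293-156775322, plus strand, an exact match 161 to 152 bases before the start: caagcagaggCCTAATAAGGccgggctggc
MYL9, chr2:156775355-156775384, plus strand, with 1 mismatch, 99 to 90 bases before the start: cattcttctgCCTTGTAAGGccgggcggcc
ACTA2, chr19:34255438-34255467, minus strand, with 1 mismatch, 84 to 75 bases before the start: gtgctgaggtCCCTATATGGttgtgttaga
ACTA2, chr19:34255388-34255417, minus strand, with 1 mismatch, 34 to 25 bases before the start: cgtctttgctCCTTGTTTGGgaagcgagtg
The MYL9 windows lie upstream of its exons, whereas the ACTA2 windows fall in exon 1 of a longer ACTA2 transcript model in the GENCODE annotation, in its UTR. An exact CArG box was present in 1.63% of the 32851 promoters in the table and a match with at most 1 mismatch in 21.1%, so the 1-mismatch matches are common. RGS5, ANPEP, CNN1, VTN and NOTCH3 had no match in this window. Of these, ANPEP was 2.38-fold and RGS5 1.39-fold higher below than above the lesion in synj1+/+.

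Each gene has a single value per group in the deposited table. It combines the 3 libraries and was read as FPKM plus 1. FPKM counts fragments per kilobase of transcript, and the authors scaled it here by upper quartile normalization. There is therefore no spread between libraries, and no p-value is given for any difference. A ratio of at least 1.5-fold in either direction was used as the mark of a larger difference. The share of all genes past that mark is printed where each comparison of the mural genes is described. The same share applies to the counts of the other gene lists in that comparison. In bulk tissue, a lower value from fewer cells cannot be told apart from less RNA per cell.

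SYNJ1, the gene that the genotype is meant to lower, went against the labels. Above the lesion its value was 1905 with the synj1+/+ label and 2404 with the synj1+/- label, and below the lesion it was 1847 and 2593. It was thus higher under the heterozygous label at both sites, and every genotype name and direction given here is that of the labels. APOE had 767 and 549 above the lesion and 477 and 564 below. The mice expressed human ApoE4 while the reads were aligned to the mouse genome, so this row need not give the level of the human transcript. Markers of neurons, astrocytes and oligodendrocytes were abundant, with SNAP25 between 5239 and 6929, GFAP between 8485 and 12975 and MOBP between 9724 and 10916 over the 4 groups. None of the marker genes examined at both sites was listed at the lowest value, 1.

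Of the signaling genes, RGS5, which speeds the switching-off of G proteins and marks pericytes, had the highest level of the set. Its value was 57.7 in synj1+/+ and 70.1 in synj1+/- above the lesion, and 80.4 and 72.1 below. RGS5 exceeded 62.0% of the genes in its lowest group and 73.1% in its highest. The lowest value was thus that of synj1+/+ above the lesion and the highest that of synj1+/+ below it, with both synj1+/- values between them.

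PDGFRB, the receptor for PDGF-B on pericytes, had the same order of groups. Its value was 15.4 in synj1+/+ and 17.8 in synj1+/- above the lesion, and 25.8 and 18.3 below. The value of synj1+/+ below the lesion stood apart, and the other 3 lay within 15.4 to 18.3. NOTCH3, the Notch receptor of arterial smooth muscle and pericytes, was nearly level, with 31.4 and 29.1 above and 31.4 and 32.6 below.

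ANPEP, the membrane aminopeptidase N (CD13) of pericytes and of myeloid cells, had a value of 5.55 in synj1+/+ and 5.14 in synj1+/- above the lesion, and 13.2 and 7.61 below. Both values below the lesion exceeded both values above it, and the value of synj1+/+ below was the highest. VTN, vitronectin, a secreted adhesion protein made by pericytes in the central nervous system, had values of 46.6 and 53.2 above the lesion.

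Of the contractile genes, MYL9, the regulatory light chain of smooth muscle myosin, had a value of 28.7 in synj1+/+ and 34.7 in synj1+/- above the lesion, and 48.0 and 41.2 below. ACTA2, smooth muscle alpha-actin, was low throughout, with 3.59 and 5.001 above and 7.00 and 5.33 below. It exceeded 4.55% of the genes in its lowest group and 14.2% in its highest. The order of the groups was the same for MYL9 and ACTA2, and the same as for RGS5 and PDGFRB. TAGLN (transgelin), an actin-binding protein of the calponin family, differed from them, with 17.5 and 15.2 above and 16.9 and 13.0 below, so that it was lower in synj1+/- at both sites.

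**Figure D1:**
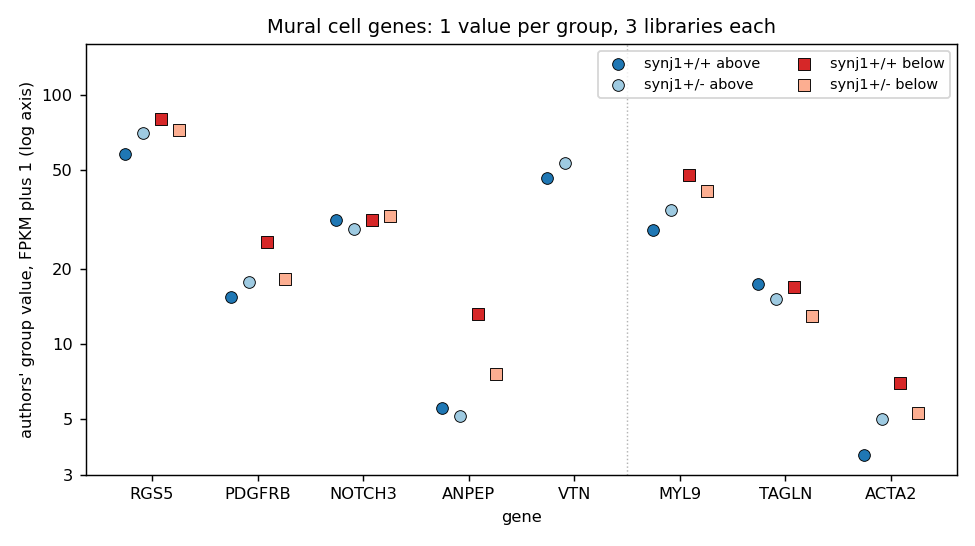
The authors' group value (FPKM plus 1, log axis) of 8 mural cell genes, with 1 point per group and no error bars because each value combines 3 libraries; the dotted line separates the contractile genes at the right. For RGS5, PDGFRB, ANPEP, MYL9 and ACTA2 the synj1+/+ value below the lesion (red square) is the highest of the 4.

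The first comparison asks whether these genes differed between the genotype labels above the lesion. Between the labels, 0 of 8 genes were past 1.5-fold in either direction, where 0.791% of all genes were past it upward and 1.94% downward. ACTA2 had the largest log2 ratio of synj1+/- over synj1+/+, 0.48, or 1.39-fold. At a log2 mark of 0.32 it was the only 1 of the 8 past it, with 4.18% of all genes upward and 11.6% in either direction. Without the 1 that the values were read as including, the same 2 levels give 1.54-fold, so this low gene passes or misses the mark with the added constant. RGS5 and MYL9 had log2 ratios of 0.28 each, PDGFRB 0.20 and VTN 0.19. These 5 were higher in synj1+/-, and NOTCH3 (-0.11), ANPEP (-0.11) and TAGLN (-0.20) were lower. Over the 8 genes the median was 0.20 and over all genes 0.00.

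Above the lesion the largest difference in another cell type was in erythroid genes, which are active in red blood cells and their precursors. All 5 were past 1.5-fold higher under the synj1+/- label, with a median log2 ratio of 2.17. Of 16 microglia and macrophage markers, 5 were past it lower, with a median of -0.42. Of 13 fibroblast markers, 2 were, COL3A1 (collagen III) at -1.60 and LAMA2 (a laminin chain) at -0.77. Endothelial markers had a median of 0.05, with 1 of 18 past the mark (MFSD2A, a lipid transporter of the blood barrier, at -0.60), and 1 of 12 basement membrane genes was past it (LAMB1, a laminin chain, at -0.64). The part of blood or of any of these cells in the mural gene values was not tested.

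Below the lesion the same comparison ran the other way for most of these genes. ANPEP was past 1.5-fold lower under the synj1+/- label, at a log2 ratio of -0.79, or 1.73-fold. It was the only 1 of 7 past the mark, and 4.38% of all genes were past it downward, with 1.16% upward. With 9 added to each value its log2 ratio was -0.42 and none of the 7 was past 1.5-fold, with 1.7% of all genes in either direction. At 2-fold none was past it either, with 1.3% of all genes downward. PDGFRB had a log2 ratio of -0.49, ACTA2 -0.39, TAGLN -0.38, MYL9 -0.22 and RGS5 -0.16, and only NOTCH3, at 0.06, was above 0. PDGFRB, ACTA2 and TAGLN passed a log2 mark of 0.32 along with ANPEP, 4 of 7, and 11.5% of all genes did so downward. The 7 genes had a median of -0.38 and all genes one of 0.01. From the 5th to the 95th percentile single genes spanned -0.53 to 0.39, and all but ANPEP lay within that span.

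Below the lesion the values of other cell types also differed between the genotypes. Of 16 fibroblast markers, 16 were past 1.5-fold lower under the synj1+/- label, with a median log2 ratio of -1.80. The largest were the matrix proteins MGP (-3.20), COL3A1 (-3.14), LUM (-2.95) and COL1A1 (-2.91). For the 13 markers listed at both sites the summed value was 649 in synj1+/+ and 127 in synj1+/-. Of 12 basement membrane genes, 8 were past the mark lower, with a median of -0.70, led by COL4A1 (a collagen IV chain, -1.34), HSPG2 (perlecan, -1.27) and the nidogens NID1 (-1.12) and NID2 (-0.86). Of 13 microglia and macrophage markers, 10 were past 1.5-fold lower, with a median of -0.65. Endothelial markers differed less, with 2 of 18 past 1.5-fold lower (ITM2A, a membrane protein, at -0.76 and CDH5, the endothelial cadherin, at -0.61) and a median of -0.17. PDGFRB is also made by fibroblasts and ANPEP by myeloid cells and fibroblasts, and the part of these cells in the lower values was not tested.

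The second pair of comparisons sets the segment below the lesion against the segment above it within a genotype. The sites were downsampled and normalized separately, so these ratios join levels from separate normalizations. The upper quartile over the genes of both sites was 89.2 above and 89.2 below in synj1+/+, and 88.6 and 90.6 in synj1+/-. In synj1+/+, 4 of 7 genes were past 1.5-fold higher below the lesion and 0 lower, and 3.24% of all genes were past it upward and 1.36% downward. ANPEP was 2.38-fold higher, ACTA2 1.95-fold, MYL9 1.67-fold and PDGFRB 1.67-fold, and on the log2 scale ACTA2 had 0.96 and MYL9 and PDGFRB 0.74 each. Only ANPEP was past 2-fold, with 0.99% of all genes upward. With 9 added to each value, PDGFRB (0.51) and ACTA2 (0.35) were no longer past 1.5-fold, 2 of 7 were left and the median over the 7 was 0.42. Among the 5 genes with a mean value of at least 10, 2 were past it. In either direction 4.6% of all genes were past 1.5-fold at the deposited values, 1.67% with 9 added and 3.76% with that filter. RGS5 had 0.48, or 1.39-fold, while NOTCH3 (0.00) and TAGLN (-0.05) were level. Each of the 4 lay above the 95th percentile of single genes, 0.48. The 7 genes had a median of 0.74, and all genes one of 0.00.

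In synj1+/-, 0 of 7 genes were past 1.5-fold, against 1.43% of all genes upward and 0.832% downward. ANPEP came closest, with a log2 ratio of 0.57, or 1.48-fold, and it gave 1.60-fold without the added 1. It was also the only 1 of the 7 past a log2 mark of 0.32, with 6.5% of all genes upward and 11% in either direction. MYL9 had 0.25, NOTCH3 0.16, ACTA2 0.09, PDGFRB 0.04, RGS5 0.04 and TAGLN -0.22. Over the 7 genes the median was 0.09, and over all genes 0.02. The comparison in each genotype shares its values with the genotype comparisons above, so these ratios are the same 4 values read in another direction.

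**Figure D2:**
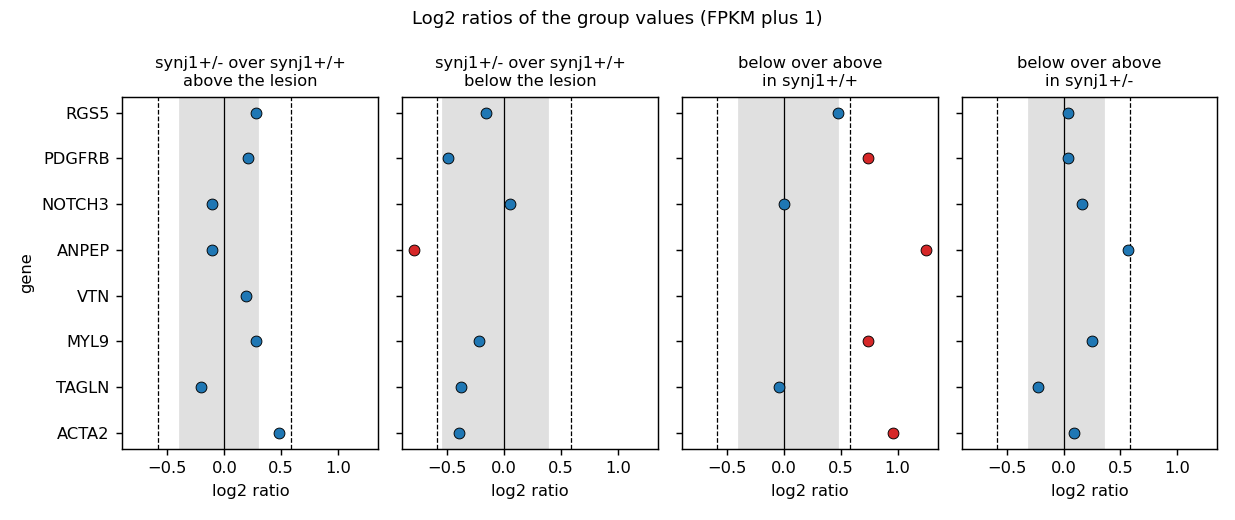
The log2 ratio of the group values for 8 mural cell genes in 4 comparisons; the gray band spans the 5th to the 95th percentile of all genes, the dashed lines mark 1.5-fold, and red points are past it. Red points are ANPEP below the lesion between genotypes, and ANPEP, ACTA2, MYL9 and PDGFRB below over above in synj1+/+.

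The same 4 values can be read as the genotype log2 ratio below the lesion minus that above it. This difference was -0.87 for ACTA2, -0.70 for PDGFRB and -0.68 for ANPEP, which are past 1.5-fold, as were 3.38% of all genes downward and 2.29% upward. With 9 added to each value none of these 3 was past it, at -0.31, -0.48 and -0.38. The difference was -0.50 for MYL9, -0.44 for RGS5, -0.18 for TAGLN and 0.16 for NOTCH3. Over the 7 genes the median was -0.50 and over the 12023 genes listed once at each site it was 0.02. Of the 7 genes, 5 had their highest value in synj1+/+ below the lesion, as did 28.4% of all genes, and 4 had their lowest in synj1+/+ above it, as did 24.4%. With 1 value per group, the difference between the sites could not be tested.

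Other cell types moved with position in synj1+/+ as well. Of 13 fibroblast markers, 12 were past 1.5-fold higher below the lesion, with a median log2 ratio of 1.82. MGP had 4.10, COL3A1 3.73, DCN (decorin) 3.71 and COL1A1 3.49, and the summed value of the 13 was 112 above and 649 below. In synj1+/- the sum was 91.1 above and 127 below, with 6 of 13 past the mark and a median of 0.22. Basement membrane genes, which encode the sheet that pericytes share with endothelium, had 7 of 12 past 1.5-fold higher below in synj1+/+, with a median of 0.68. The largest ratios were 1.52 for HSPG2, 1.36 for COL4A1, 1.04 for the laminin chain LAMA4 and 0.83 for NID2. In synj1+/-, 0 of 12 were past it, with a median of 0.11. Of 13 microglia and macrophage markers, 2 were past the mark higher in synj1+/+, with a median of 0.54, and 0 in synj1+/-, with a median of 0.19. The part of fibroblasts or macrophages in the positional difference of the mural genes was not tested.

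Endothelial markers were past 1.5-fold higher below the lesion in 6 of 18 genes in synj1+/+, with a median of 0.38. The largest were ITM2A at 1.14, EMCN (a sialomucin of capillaries and veins) at 0.96, CDH5 at 0.89 and ROBO4 (a vessel guidance receptor) at 0.70. In synj1+/- 2 of 18 were past it, the transcription factor ERG at 0.74 and VWF (von Willebrand factor) at 0.66, with a median of 0.23. Their summed value was 1001 above and 1228 below in synj1+/+, and 915 and 1065 in synj1+/-. Erythroid genes had a summed value of 254 in synj1+/+ above the lesion, 1138 in synj1+/- above, 634 in synj1+/+ below and 830 in synj1+/- below. The group with the least of these genes was also the group with the lowest RGS5, PDGFRB, MYL9 and ACTA2. All of RGS5, PDGFRB, MYL9 and ACTA2 were highest in synj1+/+ below, whereas the erythroid sum was highest in synj1+/- above. The part of blood content in the mural gene values was not tested. The 9 neuron markers went both ways between the sites, with log2 ratios of -0.54 to 0.19 and a median of -0.04 in synj1+/+ and -0.41 to 0.42 and a median of 0.11 in synj1+/-. None of the neuron, astrocyte or oligodendrocyte markers was past 1.5-fold in any of the 4 comparisons.

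Pericyte genes beyond the 10 were examined as a list of 20, of which 15 were listed at both sites. In synj1+/+, 3 of the 15 were past 1.5-fold higher below the lesion: IFITM1, an interferon-induced membrane protein, with a log2 ratio of 2.33, CD248 (endosialin), also made by fibroblasts, with 1.48, and HIGD1B, a protein enriched in brain pericytes, with 0.75. The channel subunits KCNJ8 and ABCC9, which together form a potassium channel of pericytes, had ratios of 0.06 and 0.23, and the proteoglycan CSPG4 (NG2) had 0.16. ATP13A5, a pericyte ion pump, had 0.52, FOXF2 had 0.50 and ZIC1 had 0.45. Of the 15, 11 had ratios above 0 and 4 below 0. Over the 15 the median was 0.23, beside 0.74 for the 7 genes described. KCNJ8 had values of 12.2 and 12.8 above the lesion and 12.7 and 12.8 below, a narrower range than that of PDGFRB. In synj1+/-, 2 of the 15 were past 1.5-fold higher below the lesion, IFITM1 at 0.89 and ATP13A5 at 0.74.

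Between the genotypes, HIGD1B had a log2 ratio of 0.69 in synj1+/- over synj1+/+ above the lesion, with values of 8.90 and 14.3. It was the only 1 of 18 pericyte genes past the mark there. Below the lesion, IFITM1 had a log2 ratio of -1.89 and CD248 of -0.89, and NDUFA4L2, a mitochondrial protein enriched in pericytes, had 0.67. These were the 3 past the mark among 16 genes listed, whose median was -0.06.

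Contractile genes beyond the 10 were also a list of 20, of which 13 had a row above the lesion and 12 below it. MYOCD (myocardin), the smooth muscle coactivator of serum response factor, had no row, nor did ACTG2, LMOD1, CRIP1, PLN and KCNMB1. SRF itself, the factor that binds CArG boxes, had values of 34.3 and 38.3 above the lesion and 37.0 and 38.9 below it. MYLK, the kinase that phosphorylates the myosin light chain, had values of 67.3 in synj1+/+ and 46.3 in synj1+/- above the lesion, and 101 and 63.6 below. Its genotype log2 ratio was -0.54 above and -0.66 below, so it was past 1.5-fold lower below the lesion. DES (desmin), the intermediate filament of muscle, was past it too, at -0.90, with values of only 2.85 and 1.53.

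Between the sites, TPM2, a tropomyosin, was past 1.5-fold higher below the lesion in both genotypes, with log2 ratios of 0.63 in synj1+/+ and 0.69 in synj1+/-. SYNPO2 (myopodin), an actin-binding protein, was past it in the other direction in synj1+/-, at -0.63. Over the 11 listed at both sites the median was 0.10 in synj1+/+ and 0.07 in synj1+/-. The contractile genes described before had 0.96 (ACTA2), 0.74 (MYL9) and -0.05 (TAGLN) in synj1+/+.

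The ligands PDGFB and PDGFD spanned a narrower range over the 4 groups than their receptor. PDGFB, the main ligand of PDGFRB, had values of 57.4 in synj1+/+ and 59.2 in synj1+/- above the lesion, and 69.5 and 63.1 below. PDGFD, which also binds PDGFRB, had 53.8 and 55.9 above and 50.2 and 55.3 below. None of the 5 PDGF genes, which include the receptor PDGFRA of fibroblasts and oligodendrocyte precursors, was past 1.5-fold in any of the 4 comparisons.

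Of the Notch ligands, JAG1 had values of 5.21 and 4.19 above the lesion and 6.06 and 5.36 below, and JAG2 had 91.4 and 108 above and 86.0 and 105 below. DLL1 had 11.6 and 9.35 above and 11.4 and 11.5 below, and DLL4, the endothelial ligand, was listed only below, at 3.50 and 3.47. HEYL, a Notch target of mural cells, had 3.51 and 3.91 above and 4.06 and 4.19 below. None of the 12 Notch genes was past 1.5-fold in a comparison where it was listed.

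**Figure D3:**
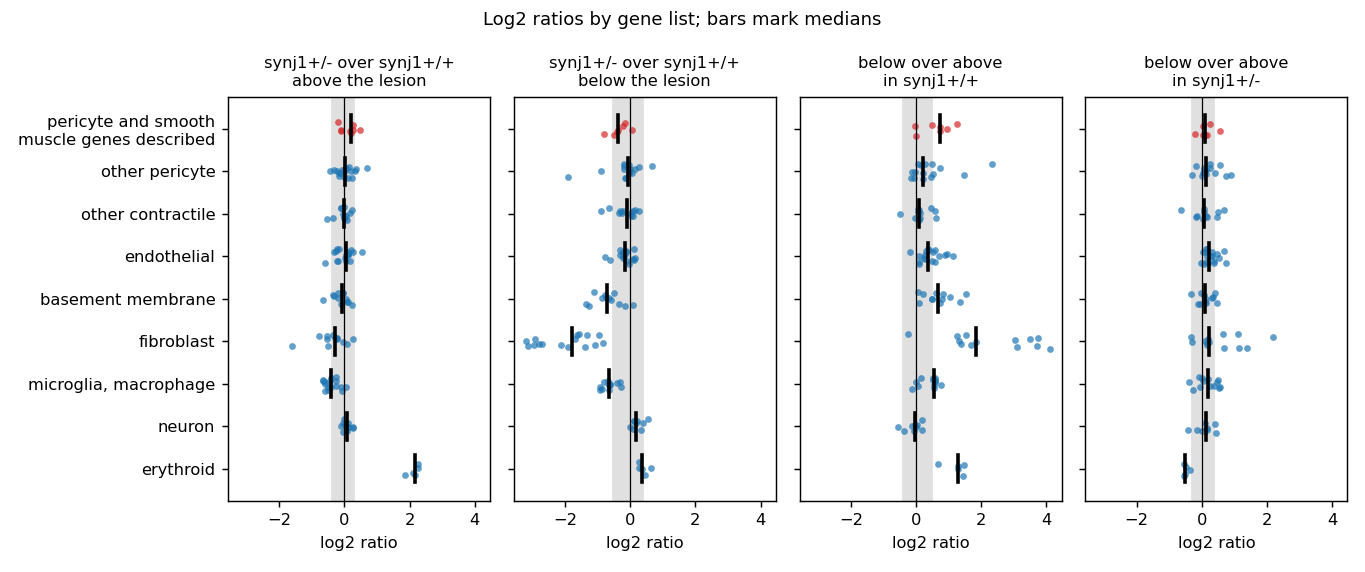
The log2 ratio of each gene in the 7 or 8 mural genes described (red) and in 8 other gene lists (blue), in 4 comparisons; black bars mark list medians and the gray band spans the 5th to the 95th percentile of all genes. Below over above in synj1+/+, the median of the mural genes is 0.74 and that of the fibroblast list 1.82, and in synj1+/- they are 0.09 and 0.22.

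The genes whose 4 values were most like those of PDGFRB were sought among 9285 genes with every value at least 10, by the Euclidean distance between log2 values centred on their own mean. They were TMEM173 at a distance of 0.04, SLC12A7 at 0.09, PPP1R14B at 0.10, VIT at 0.11 and LTBP1 at 0.11. TMEM173, for example, had values of 24.5 and 27.4 above the lesion and 39.5 and 28.6 below. For ACTA2 they were GSDMD at 0.09, SLCO4A1 at 0.14, ETFBKMT at 0.15, SLC22A21 at 0.15 and EGFL7 at 0.17, with 22.5, 29.0, 43.1 and 33.1 for GSDMD in the same order. ACTA2 itself was below 10 in every group. Its log2 ratio of below over above in synj1+/+ was 0.96 with the added 1 and 1.21 without it. Which genes lie nearest to ACTA2 may therefore depend on that constant. A likeness over 4 values is a description only.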

How the data were processed

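RNA-seq libraries of spinal cord were prepared by the submitters with random-primed TruSeq kits, downsampled per site to the smallest library, and aligned with STAR 2.5.4b to GRCm38.p6, as the paper's methods and the submitters' processing notes state; Cuffdiff 1.3.0 is named there as well. The authors deposited 1 FPKM value per gene and group with upper quartile normalization. It was read as FPKM plus 1 because the lowest value is exactly 1, and FPKM here sets a gene's level per length. The table lists tests with status Ok only. Its fold changes, p-values and q-values, and a shorter list at a p-value limit, are the authors' own comparisons and were not used. The groups come from the sample labels, and the table does not show how deep each library was.

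Log2 ratios of the deposited values were computed in Python 3.11.15 with numpy 2.4.6 and pandas 2.3.3, and drawn with matplotlib 3.10.9. Across sites, 3 symbols with more than 1 row at a site were left out. Computations were tested on simulated data. The 10 genes and the lists were chosen with earlier results of these data known. All 10 genes are described, and from each other list the genes past 1.5-fold, at most 4, could be named. The PDGF and Notch ligands, SNAP25, GFAP, MOBP, KCNJ8, ABCC9, CSPG4, SRF and HEYL were named besides them after their values were seen. So were FOXF2, ZIC1, ATP13A5 in synj1+/+ and MYLK above the lesion. Alternatives changed the added constant, the filter on low values, the scaling and the fold.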

Additional observations from a re-analysis of the deposited data

How the results depend on the processing

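Each value combines 3 libraries, so leaving out a library could not be done and no sampling error can be given. Libraries were downsampled to a common number of reads per site, and the limit set by that depth was not estimated. No paired analysis was possible because the columns carry no single samples. Several changes concerned the low genes ACTA2 and ANPEP. Above the lesion between genotypes, 1 gene (ACTA2) instead of 0 was past the mark without the added 1, and 1 at a log2 mark of 0.32. Below the lesion between genotypes, where 1 was past it, the count was 0 with 9 added, 4 at a log2 mark of 0.32 and 0 at 2-fold. Below over above in synj1+/+, where 4 were past it, the count was 2 with 9 added, 2 with a mean value of at least 10 (5 genes left) and 1 at 2-fold. The median over the genes there was 0.42 with 9 added and 0.48 with that filter, instead of 0.74. In synj1+/-, 1 (ANPEP) instead of 0 was past it without the added 1, and 1 at a log2 mark of 0.32. Centring on the median and scaling by the upper quartile changed no count of genes past the mark by more than 1.5 times, and no called gene reversed under any alternative tried.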
